A study of Mus musculus with 30 samples.

Results

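A set of 10 genes that handle zinc was followed through 30 RNA-seq libraries of mouse abdominal aorta: the zinc importers Slc39a1, Slc39a7, Slc39a10, Slc39a13 and Slc39a14, the zinc exporters Slc30a1, Slc30a5 and Slc30a7, and the metallothioneins Mt1 and Mt2. They are 10 of the 14379 genes with a transcript listed for every library. Slc39a1 was selected on its measured FPKM, which was higher in the aortas of mice given baicalin. The others were listed by name as genes of the same families, with earlier results of these data known. All mice were wild type (WT) C57BL/6 and were treated for 28 days, with 5 libraries in each of 6 groups. Control mice received saline. AngII mice received angiotensin II at 500 ng/kg/min, a peptide hormone that narrows arteries. The AngII+ETH, AngII+BAI and AngII+GAS mice received the same angiotensin II with ethoxysanguinarine (a plant alkaloid derivative), baicalin (a flavone glucuronide of Scutellaria) or gastrodin (a phenolic glucoside of Gastrodia) at 5 mg/kg/day. The AngII+VAL mice received it with valsartan, a blocker of the type 1 angiotensin receptor, at 10.4 mg/kg/day. Every compound group therefore also carried angiotensin II, no group received a compound alone, and their age is not among the labels used here.

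Zinc transporters fall into opposite families. SLC39 proteins (ZIPs) move zinc into the cytosol from outside the cell or out of organelles, and SLC30 proteins (ZnTs) move it out of the cytosol, across the plasma membrane or into the secretory pathway. Metallothioneins are small cysteine-rich proteins that bind zinc and copper, and their genes are switched on through the zinc-sensing factor MTF-1 when free zinc rises, and also by glucocorticoids and in the acute-phase response. In the vessel wall, zinc is a cofactor of matrix proteases, of antioxidant enzymes and of many transcription factors.

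Levels are given in FPKM (fragments scaled to transcript length and to library depth), so that levels of different genes can be set side by side per length. They are summed over a gene's annotated transcripts that were listed for every library, which for the members were 19 of 51. Recovered depth was 69788000 to 80825000 reads per library, and 3 reads on a transcript of 1 kb correspond to 0.0371 to 0.0430 FPKM, which covers counting error only. The members' levels lay far above this. All 6 smooth muscle markers were above 0 in all 30 libraries (mean log2(FPKM + 1) of 7.24 to 9.47), which does not show that the tissue was pure aorta. Markers of other tissues were also high. Over all libraries, white adipocyte markers summed to 2272 to 6772.5 FPKM, brown adipocyte markers to 520 to 5356 and erythrocyte markers to 2022 to 28259. Skeletal muscle markers summed to 493 to 2717 FPKM in AngII+VAL and 6.82 to 2987 in Control (median 26.2). Their part in the members' levels was not tested. Libraries AngII+BAI 3 and AngII+BAI 5 stood apart. Their 6 smooth muscle markers summed to 1569 and 2493 FPKM, against 6877 to 11116 in the other AngII+BAI libraries, and their 6 macrophage markers to 2510 and 1593 FPKM, against 319 to 593. AngII+VAL 2 also had a high macrophage sum, 1258 FPKM. Differences of AngII+BAI from the other groups are therefore also given without libraries 3 and 5. In bulk tissue, fewer cells of a type and less RNA per cell cannot be told apart.

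**Figure D1:**
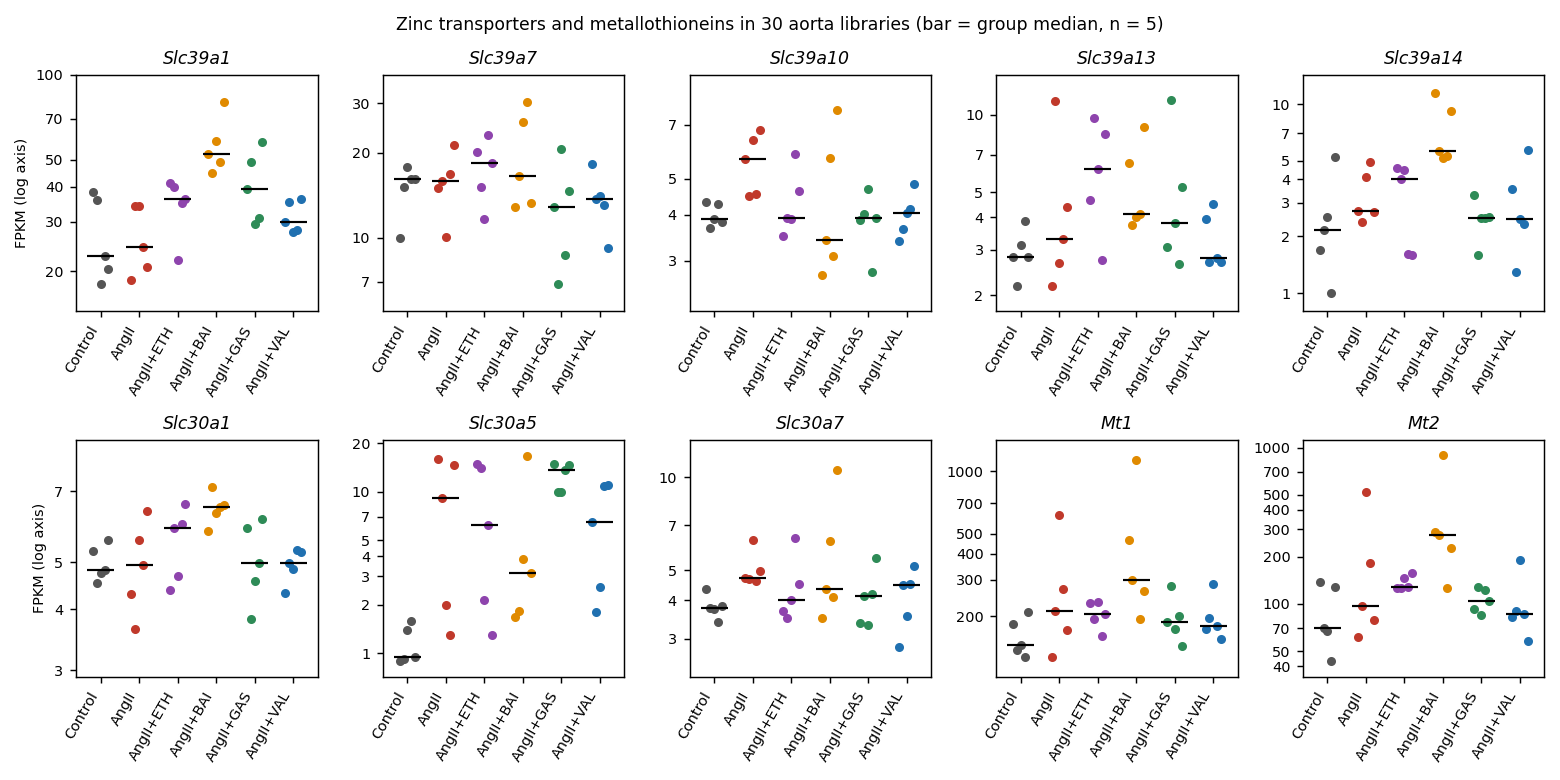
Level of each of the 10 genes in every library (points; FPKM, log axis) for the 6 groups of 5, with the group median as a bar. Slc39a1 and Slc39a14 sit highest in AngII+BAI, Slc30a5 lies between 0.898 and 1.59 FPKM in all Control libraries and reaches 16.7 FPKM elsewhere, and single libraries carry the highest Mt1 and Mt2 values.

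The importers were led by Slc39a1, at a mean of 36.4 FPKM over the 30 libraries. Slc39a7 followed at 15.8 FPKM, and Slc39a13, Slc39a10 and Slc39a14 at 4.69, 4.39 and 3.67 FPKM. Slc39a1 encodes the importer of the plasma membrane known as ZIP1. It lies at chr3:90248172-90253612 (mm10, plus strand). Its sole annotated transcript, Slc39a1-201 (2364 bases, protein coding), was listed for every library, so its value is not split between annotated isoforms. Whether assembled transcripts at this place took part of its reads was not checked.

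In AngII+BAI, Slc39a1 stood at 52.5, 44.9, 58.5, 49.1 and 80.3 FPKM in libraries 1 to 5. In AngII it stood at 18.6, 34.3, 34.1, 24.4 and 20.8 FPKM, and in Control at 38.4, 36.0, 18.0, 22.7 and 20.35 FPKM. Every AngII+BAI library lay above every AngII and every Control library, as held for 0.303% and 2.23% of genes tested in these 2 comparisons. Because the gene was picked for this difference, it is described and not tested: the log2 fold change was 1.09 (SE 0.23) against AngII and 1.08 (SE 0.23) against Control, on the scale of log2(FPKM + 1) used for all fold changes here, which understates the change of low genes. Without AngII+BAI 3 and 5 these values were 0.90 and 0.89.

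The other compounds gave group means of Slc39a1 between those of AngII+BAI and Control. AngII+GAS libraries held 39.2, 49.2, 29.4, 30.9 and 57.8 FPKM. AngII+ETH libraries held 41.4, 40.0, 21.9, 35.03 and 36.3 FPKM, and AngII+VAL libraries 29.98, 35.3, 27.5, 28.1 and 36.1 FPKM. The order of the group means was AngII+BAI (57.1 ± 13.9, SD, n = 5), AngII+GAS (41.3 ± 12.1), AngII+ETH (34.9 ± 7.74), AngII+VAL (31.4 ± 4.04), Control (27.1 ± 9.41) and AngII (26.4 ± 7.39). Ranges of all neighbours in this order overlapped, and from AngII+GAS downward each step was smaller than the larger SD of its groups. AngII+BAI overlapped with AngII+GAS but with no other group. A range wholly above AngII+ETH or AngII+VAL held for 0.484% and 2% of genes tested.

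The rule did not use the other compounds against Control, and there Slc39a1 was tested with limma, adjusting over all 13223 genes tested. AngII+GAS differed from Control by 0.61 (95% interval 0.14 to 1.07, unadjusted p = 0.013, adjusted p = 1.00). The difference was 0.39 (-0.08 to 0.85) for AngII+ETH and 0.26 (-0.21 to 0.73) for AngII+VAL, with adjusted p of 0.976 and 1.00. None passed the threshold of 0.05. The intervals leave room for a level higher than Control by about as much as AngII+GAS showed, so these values do not show that the levels were alike. The labels do not say that the libraries of a group came from separate mice, so p-values measure only the spread between these libraries, which may be technical.

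The 5 genes whose levels followed Slc39a1 most closely over the 30 libraries were Oaf (Pearson's r = 0.70), Pycr1 (0.68), Srpx2 (0.65), Cks2 (0.65) and Gm10184 (0.64). With group means subtracted these were 0.49, 0.56, 0.51, 0.41 and 0.27. The values are descriptive, over libraries that share the groups and the high AngII+BAI level. Among the members, Slc39a1 had r = 0.49 with Mt2 and 0.42 with Mt1, and 0.23 and 0.16 with group means subtracted.

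Slc39a14 encodes ZIP14, which imports zinc, manganese and iron and is known for its induction in inflammation. It lies at chr14:70303469-70351425 (mm10, minus strand). In AngII+BAI it stood at 11.5, 5.66, 5.18, 5.31 and 9.15 FPKM. In Control it stood at 1.70, 2.17, 2.54, 1.00 and 5.24 FPKM, and in AngII at 2.70, 2.37, 4.12, 4.94 and 2.68 FPKM. Every AngII+BAI library was above every AngII library, while Control 5 overlapped the lower end of AngII+BAI.

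Against Control, Slc39a14 rose with AngII+BAI by a log2 fold change of 1.29 (SE 0.30, limma adjusted p = 0.039). It was 1 of 2 members called among the 9 tested in this comparison, in which 1.44% of all genes tested were called, 1.1% higher and 0.333% lower. The call is thin: the fold change lay between 1.07 and 1.74 over 20 alternative analyses, but only 8 of them kept it past the threshold (adjusted p 0.017 to 0.334). Leaving out any single library among Control 1 to 4 or AngII+BAI 1, 3 and 5 ended it (adjusted p 0.065 to 0.101). Without AngII+BAI 3 and 5 the value was 1.30 (adjusted p = 0.110).

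Against AngII, the AngII+BAI difference in Slc39a14 was 0.91 (SE 0.30, unadjusted p = 0.00568, adjusted p = 0.162) and did not pass. The groups did not overlap, as held for 0.303% of genes tested in the direction of AngII+BAI. Against AngII+GAS, AngII+VAL and AngII+ETH the differences were 1.22, 1.07 and 0.99, with adjusted p of 0.055, 0.078 and 0.202. None of these passed, although the gene sums of AngII+BAI did not overlap with those of AngII+ETH or AngII+GAS, as held for 0.484% and 0.9% of genes. The Slc39a14 differences without AngII+BAI 3 and 5 were 0.92 from AngII, 1.23 from AngII+GAS, 1.08 from AngII+VAL and 1.00 from AngII+ETH, and none passed (adjusted p 0.139 to 0.301). Slc39a14 had group means of 7.35 ± 2.82 FPKM in AngII+BAI (SD, n = 5), and of 3.36 ± 1.11 in AngII, 3.27 ± 1.54 in AngII+ETH, 3.06 ± 1.68 in AngII+VAL, 2.53 ± 1.62 in Control and 2.48 ± 0.603 in AngII+GAS.

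The Slc39a14 sum joins Slc39a14-202 (4926 bases) with Slc39a14-204, a short protein-coding model of 458 bases. In AngII+BAI the long transcript stood at 11.2, 5.04, 1.94, 5.09 and 8.20 FPKM. Library 3 was the exception, since the short transcript there reached 3.23 FPKM. For the long transcript alone, AngII+BAI 3 fell inside the AngII range of 1.73 to 4.33 FPKM. It also fell inside the ranges of AngII+ETH (0.947 to 4.30 FPKM) and AngII+GAS (1.24 to 2.99 FPKM). The separation of AngII+BAI from these groups therefore held for the gene sum and not for the long transcript.

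Slc39a7, whose protein ZIP7 releases zinc from the endoplasmic reticulum and Golgi, ranged from 6.86 FPKM (AngII+GAS 2) to 30.3 FPKM (AngII+BAI 4). Its group means ran from 12.7 FPKM in AngII+GAS to 19.7 FPKM in AngII+BAI, with every pair of groups overlapping. Most of the sum came from Slc39a7-204, annotated as a retained intron and so not a protein-coding product, which made up 50.4% of the mean in AngII+VAL and 85.0% in Control. The coding transcript Slc39a7-201 averaged 0.315 FPKM in Control and 3.46 FPKM in AngII+BAI, where single libraries ranged from 0.707 to 8.38 FPKM. The group means of the gene sum were thus mostly not coding RNA, but single libraries differed. Slc39a7-201 exceeded Slc39a7-204 in AngII+BAI 5 (8.38 against 4.12 FPKM) and in AngII+VAL 4 (5.43 against 2.98 FPKM), for example. The division of reads between these overlapping transcripts is itself an estimate. Slc39a7-205 (protein coding) and Slc39a7-202 (retained intron) were each listed for only 15 libraries and are outside the sum. They reached 2.56 FPKM (AngII+BAI 4) and 1.69 FPKM (AngII+ETH 2).

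Slc39a10 encodes a plasma membrane importer. It stood at 4.33, 3.68, 3.88, 4.29 and 3.82 FPKM in Control and at 5.66, 4.50, 6.35, 4.53 and 6.76 FPKM in AngII. The ranges did not overlap, as held for 3.01% of genes in the direction of AngII, but the difference of 0.38 (SE 0.18, unadjusted p = 0.044) had an adjusted p of 0.429. In AngII+BAI, libraries 3 and 5 held 5.68 and 7.64 FPKM and the others 2.74 to 3.42 FPKM. Against AngII the difference was -0.31 (SE 0.18, adjusted p = 0.420). Without AngII+BAI 3 and 5 it was -0.67 with an adjusted p of 0.039, which passed, as did 0.771% of all genes there (102, against 44 with all libraries).

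Slc39a13 encodes ZIP13, an intracellular importer whose loss causes a connective tissue disorder. Control libraries held 2.17 to 3.89 FPKM, and the highest values were 11.5 FPKM in AngII+GAS 2, 11.3 FPKM in AngII 2 and 9.74 FPKM in AngII+ETH 2. The other AngII+ETH libraries held 4.66, 6.16, 2.73 and 8.43 FPKM, and the AngII+BAI libraries 6.53, 3.74, 4.03, 4.12 and 8.97 FPKM. AngII+ETH against Control was the largest difference of Slc39a13 from Control, 0.81 (SE 0.34, adjusted p = 0.956). The gene overlaps Psmc3, a proteasome subunit gene on the opposite strand, over 4579 bases. Psmc3 ran at 35.5 to 102 FPKM, and with a library kit that does not mark strand the reads of the shared stretch cannot be told apart.

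The exporters had levels below those of Slc39a1 and Slc39a7 and in the range of the other importers or above, with means over the 30 libraries of 5.32 FPKM for Slc30a1, 6.9996 for Slc30a5 and 4.54 for Slc30a7. Slc30a1 encodes ZnT1, the exporter of the plasma membrane and itself an MTF-1 target. Its AngII+BAI libraries stood at 5.80, 7.14, 6.30, 6.49 and 6.55 FPKM, all above the Control values of 5.28, 4.54, 4.75, 4.81 and 5.56 FPKM. AngII libraries held 4.299, 3.64, 5.55, 4.93 and 6.37 FPKM. The AngII+BAI libraries were thus all higher than Control, as held for 2.23% of genes, but overlapped with AngII. The difference was 0.32 against Control (SE 0.13, unadjusted p = 0.020, adjusted p = 0.172) and 0.34 against AngII (SE 0.13, adjusted p = 0.218). Neither passed, and they were 0.32 and 0.34 without AngII+BAI 3 and 5 (adjusted p = 0.288 and 0.196). Slc30a1 varied least of the members, with its highest library at 1.96 times its lowest.

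Slc30a5 encodes ZnT5, which carries zinc into the early secretory pathway, where it supplies enzymes such as alkaline phosphatase. It lies at chr13:100802648-100833427 (mm10, minus strand). Control libraries held 0.898, 0.927, 1.40, 1.59 and 0.946 FPKM. AngII libraries held 15.9, 9.20, 1.98, 1.31 and 14.6 FPKM, and AngII+GAS libraries 14.8, 9.97, 9.91, 13.6 and 14.7 FPKM. Slc30a5 was thus uniformly low in Control, uniformly high in AngII+GAS, and split in AngII between 3 high and 2 low libraries. AngII+ETH ran from 1.298 to 14.8 FPKM, AngII+VAL from 1.80 to 11.02 FPKM, and AngII+BAI from 1.67 to 3.82 FPKM apart from library 4 at 16.7 FPKM.

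No Slc30a5 comparison passed the threshold. The difference from Control was 1.74 for AngII (SE 0.59, adjusted p = 0.276) and 2.65 for AngII+GAS (SE 0.59, adjusted p = 0.341). It was 1.63 for AngII+ETH, 1.58 for AngII+VAL and 1.19 for AngII+BAI (1.26 without AngII+BAI 3 and 5, adjusted p = 0.377). The AngII+GAS, AngII+VAL and AngII+BAI ranges each lay wholly above Control, as held for 0.265%, 0.461% and 2.23% of genes in the same comparisons. In a model of these 2 groups alone, which does not share the wide spread of the other groups, the adjusted p for AngII+GAS was 0.000117. The 2 models thus gave the same fold change and opposite calls.

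The isoforms of Slc30a5 split by library as well. Slc30a5-201 (3179 bases) was present throughout, while Slc30a5-205 (2722 bases), also protein coding, was listed at 0 in all Control, AngII+ETH and AngII+BAI libraries. It was listed at 0 in 3 of 5 AngII, 1 of 5 AngII+GAS and 2 of 5 AngII+VAL libraries. Where it was above 0, its level ran from 4.20 FPKM (AngII+VAL 1) to 8.51 FPKM (AngII+GAS 1). A listed 0 can also be a failed estimate in the division of reads between these transcripts. High sums without Slc30a5-205 occurred as well, in AngII 1, AngII+ETH 1 and 2, AngII+BAI 4 and AngII+GAS 4, at 13.6 to 16.7 FPKM.

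**Figure D2:**
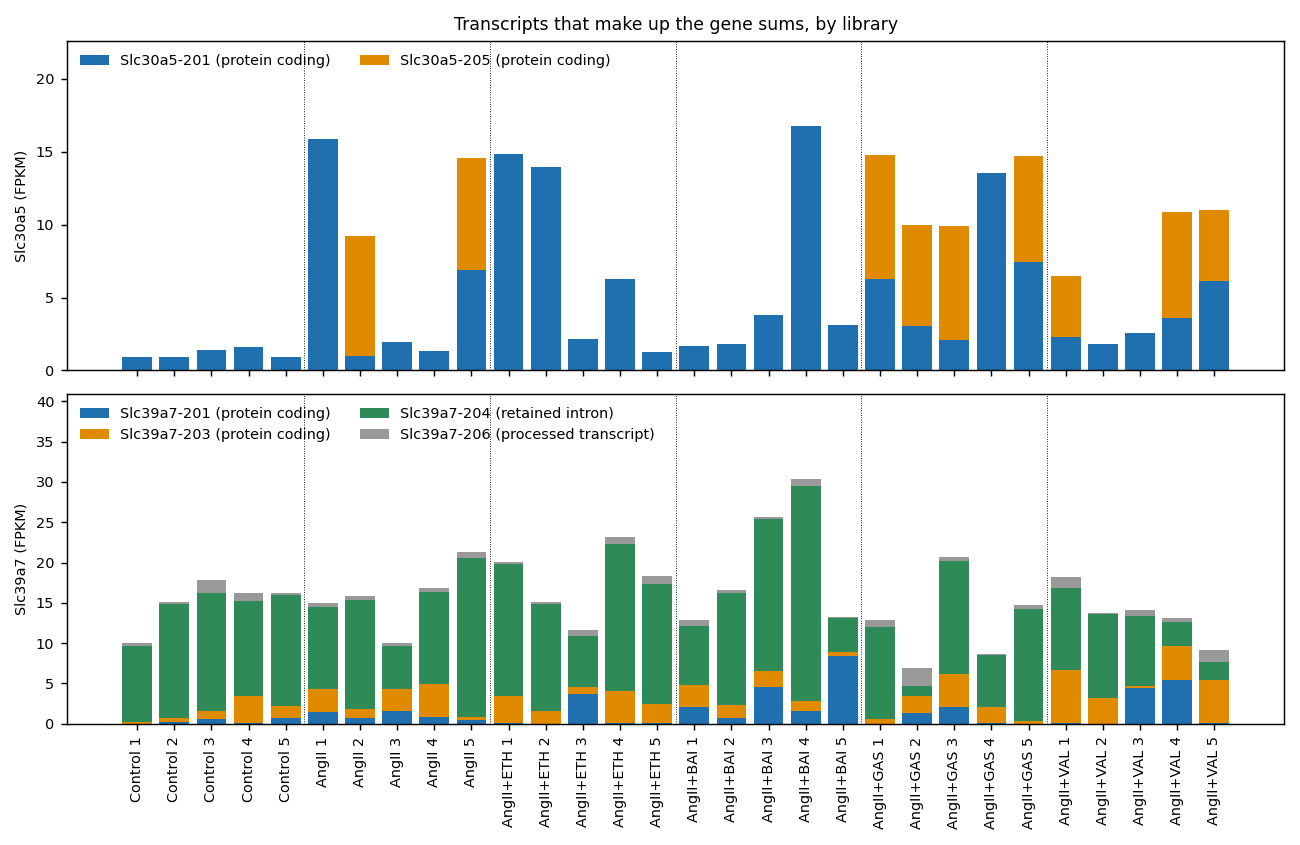
Stacked FPKM of the transcripts summed for Slc30a5 (top) and Slc39a7 (bottom) in each of the 30 libraries, with dotted lines between groups. Slc30a5-205 appears in 9 libraries of AngII, AngII+GAS and AngII+VAL, and the retained-intron transcript Slc39a7-204 makes up most of Slc39a7 in most libraries.

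Slc30a7 encodes ZnT7, a zinc transporter of the Golgi. Control libraries held 3.41 to 4.34 FPKM and AngII libraries 4.60 to 6.28 FPKM. The ranges did not overlap, as held for 3.01% of genes in the direction of AngII, but the difference of 0.32 (SE 0.19) had an adjusted p of 0.561. The highest library was AngII+BAI 5 at 10.6 FPKM, followed by AngII+ETH 4, AngII 3 and AngII+BAI 3. Slc30a7 and Slc39a10 were the transporter pair that ran most closely together over the 30 libraries, with r = 0.74, and 0.77 with group means subtracted. AngII+BAI 5 was the highest library for both. Markers of fibroblasts (6 of 6 listed, none at 0) were also higher in AngII than in Control: their mean log2(FPKM + 1) ran from 6.28 to 6.80 in Control and from 6.88 to 8.07 in AngII, without overlap. Their summed levels were 894 to 1289 FPKM in Control, 1417 to 3491 FPKM in AngII, and 5193 FPKM in AngII+BAI 5, the highest of all libraries. AngII 3 and AngII+ETH 4, also high in Slc30a7, had sums of 3491 and 2538 FPKM. AngII+BAI 3, with Slc39a10 at 5.68 and Slc30a7 at 6.23 FPKM, had a fibroblast sum of 801 FPKM. The part of fibroblast content in both genes was not tested.

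The metallothioneins were by far the most abundant members, with means of 252 FPKM for Mt1 and 164 FPKM for Mt2. They lie side by side on chromosome 8, Mt2 at chr8:94172664-94173568 and Mt1 at chr8:94179082-94180327 (mm10, both on the plus strand). Their coding sequences are shown because the genes are close copies whose reads have to be kept apart for their values to be separate. Capitals mark the 38 of 183 bases at which they differ, with the stop codon left out (GENCODE M21).
Mt1: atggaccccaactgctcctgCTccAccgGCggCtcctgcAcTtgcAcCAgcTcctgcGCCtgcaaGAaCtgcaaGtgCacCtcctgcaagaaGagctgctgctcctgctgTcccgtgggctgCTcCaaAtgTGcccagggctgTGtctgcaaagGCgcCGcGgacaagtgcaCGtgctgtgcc
Mt2: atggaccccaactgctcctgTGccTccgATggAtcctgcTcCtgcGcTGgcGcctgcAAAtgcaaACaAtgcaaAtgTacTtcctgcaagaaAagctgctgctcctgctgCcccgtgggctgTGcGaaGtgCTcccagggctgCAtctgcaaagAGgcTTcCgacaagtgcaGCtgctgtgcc
The coding sequences were 79.2% identical, and their longest identical run was 20 bases. The sources used here do not give how reads shared between them were assigned.

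Upstream sequences are shown because both genes are known for the metal response elements that MTF-1 binds. The windows are the 250 bases before the RefSeq start (GRCm38.p6), at chr8:94178839-94179088 for Mt1 and chr8:94172368-94172617 for Mt2. Capitals mark matches to the element's core, searched as TGCACNC and TGCGCNC on both strands.
Mt1 upstream: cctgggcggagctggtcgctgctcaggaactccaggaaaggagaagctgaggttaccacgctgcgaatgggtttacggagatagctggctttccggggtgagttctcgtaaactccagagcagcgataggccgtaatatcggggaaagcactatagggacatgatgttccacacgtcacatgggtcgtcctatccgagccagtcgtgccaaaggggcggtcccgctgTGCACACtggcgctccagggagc
Mt2 upstream: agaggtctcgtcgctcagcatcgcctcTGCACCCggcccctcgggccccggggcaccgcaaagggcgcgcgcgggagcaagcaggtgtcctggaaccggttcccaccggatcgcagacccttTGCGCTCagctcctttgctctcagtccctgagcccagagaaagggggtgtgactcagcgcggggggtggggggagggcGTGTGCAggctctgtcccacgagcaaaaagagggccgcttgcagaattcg
Mt2 had 3 matches, 2 on the plus strand and 1 on the minus strand, and Mt1 had 1 match on the plus strand. Of 32851 such windows, 21.4% held at least 1 match and 1.26% held 3 or more. Among the other members, Slc30a1 and Slc30a5 had 1 match each on the minus strand, and Slc39a1, Slc39a7, Slc39a10, Slc39a13 and Slc30a7 had 0. Slc39a14 had no entry. A match describes letters in this window and is no evidence of binding. The transcripts Mt1-203 and Mt1-202 start downstream of the Mt1 window, at chr8:94179211 and chr8:94179241. The Mt2 window ends before the annotated start of Mt2-201 at chr8:94172664. Bases beyond the windows were not searched. The counts therefore need not cover every element of either promoter and do not rank Mt1 against Mt2.

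In Control, Mt2 stood at 139, 70.6, 66.8, 42.9 and 128 FPKM. In AngII+BAI it stood at 287, 277, 897, 127 and 227 FPKM, and in AngII at 61.8, 96.8, 522, 183 and 79.5 FPKM. In AngII+BAI, 4 libraries exceeded every Control library, while AngII+BAI 4 lay inside the Control range. Both AngII and AngII+BAI held 1 library far above the rest, library 3 in each.

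Against Control, Mt2 rose with AngII+BAI by 1.82 (SE 0.46, adjusted p = 0.047), the larger of the 2 calls among the members in this comparison. Mt1 was 1.27 higher (SE 0.36) with an adjusted p of 0.067, which did not pass. The Mt2 fold change ran from 1.39 to 2.11 over 20 alternatives, and 6 of them kept the call (adjusted p 0.018 to 0.334). Leaving out any single library among Control 1 to 4 or AngII+BAI 1, 3 and 5 ended it (adjusted p 0.078 to 0.144). Without AngII+BAI 3 and 5 together the difference was 1.39 for Mt2 (adjusted p = 0.170) and 0.92 for Mt1 (adjusted p = 0.194).

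Mt1 stood at 464, 300.2, 1136.5, 193 and 263 FPKM in AngII+BAI, and at 183, 137, 146, 128 and 209 FPKM in Control. In AngII it stood at 128, 212, 618, 271 and 172 FPKM. Library 3 was again the highest of both infused groups, and AngII+BAI overlapped with both others. Against AngII, the AngII+BAI differences were 1.09 for Mt2 (SE 0.46, adjusted p = 0.276) and 0.67 for Mt1 (SE 0.36, adjusted p = 0.389). Without AngII+BAI 3 and 5 these were 0.67 and 0.33 (adjusted p = 0.458 and 0.628). Without AngII 3 they were 1.58 and 1.01 (adjusted p = 0.070 and 0.137).

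In the groups with other compounds, Mt2 averaged 138 ± 14.8 FPKM in AngII+ETH, 107 ± 18.4 in AngII+GAS and 102 ± 51.8 in AngII+VAL (SD, n = 5 each). Control averaged 89.4 ± 41.6 FPKM. The Mt2 difference from Control was largest of these in AngII+ETH, at 0.74 (SE 0.46, adjusted p = 0.981). Mt1 averaged 205 ± 30.9, 197 ± 51.3 and 197 ± 51.0 FPKM, against 161 ± 34.5 FPKM in Control. For Mt2 the 95% intervals of the difference from Control reached from -0.21 to 1.69 with AngII+ETH, from -0.59 to 1.32 with AngII+GAS and from -0.76 to 1.15 with AngII+VAL, which leaves changes of more than 1 on the log2 scale unresolved.

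Macrophage markers moved with part of the metallothionein signal. AngII+BAI 3 had the highest macrophage sum of all libraries and the highest Mt1 and Mt2, and AngII 3 had the highest macrophage sum of its group (671 FPKM) and the highest Mt1 and Mt2 of its group. In contrast, AngII+BAI 5 with a macrophage sum of 1593 FPKM held Mt1 and Mt2 at 263 and 227 FPKM, each the second lowest of its group. AngII+VAL 2 with 1258 FPKM held them at 196 and 90.5 FPKM, inside the range of its group. The part of macrophage content in the metallothionein levels was not tested.

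**Figure D3:**
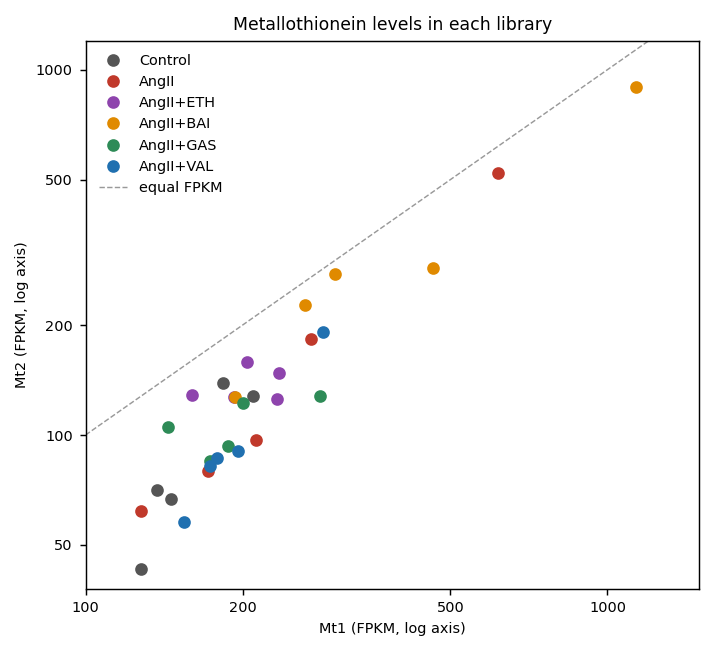
Mt1 against Mt2 in each of the 30 libraries (both in FPKM, log axes), coloured by group, with a dashed line at equal levels. The genes ran together (r = 0.94), all libraries lie below the line, and AngII+BAI 3 and AngII 3 are the highest.

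Mt1 and Mt2 ran together over the 30 libraries (r = 0.94, and 0.92 with group means subtracted). Mt2 was below Mt1 in all libraries, and the ratio of Mt2 to Mt1 averaged 0.769 in AngII+BAI, 0.682 in AngII+ETH, 0.585 in AngII, 0.557 in AngII+GAS, 0.535 in Control and 0.494 in AngII+VAL. Its range in AngII+BAI (0.620 to 0.922) overlapped with that in Control (0.337 to 0.756), and its mean without AngII+BAI 3 and 5 was 0.732. Mt1 came almost wholly from Mt1-201, which made up 96.5% to 99.4% of the group means.

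Beside each other, the genes that followed Mt1 most closely were Gm45774 (r = 0.94), Wfdc21 (0.85), Lrg1 (0.81) and Cdc20 (0.81), and those that followed Mt2 were Gm45774 (0.95), Timp1 (0.83), Lcn2 (0.82) and Smim3 (0.81). Lcn2 and Lrg1 encode acute-phase proteins, and Timp1 an inhibitor of matrix proteases. Gm45774 is an antisense transcript that overlaps Mt2 over 749 bases and ran at 1.28 to 27.0 FPKM, and without strand its reads and those of Mt2 cannot be told apart. These values describe 30 libraries that share the high AngII+BAI 3 and AngII 3 values.

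**Figure D4:**
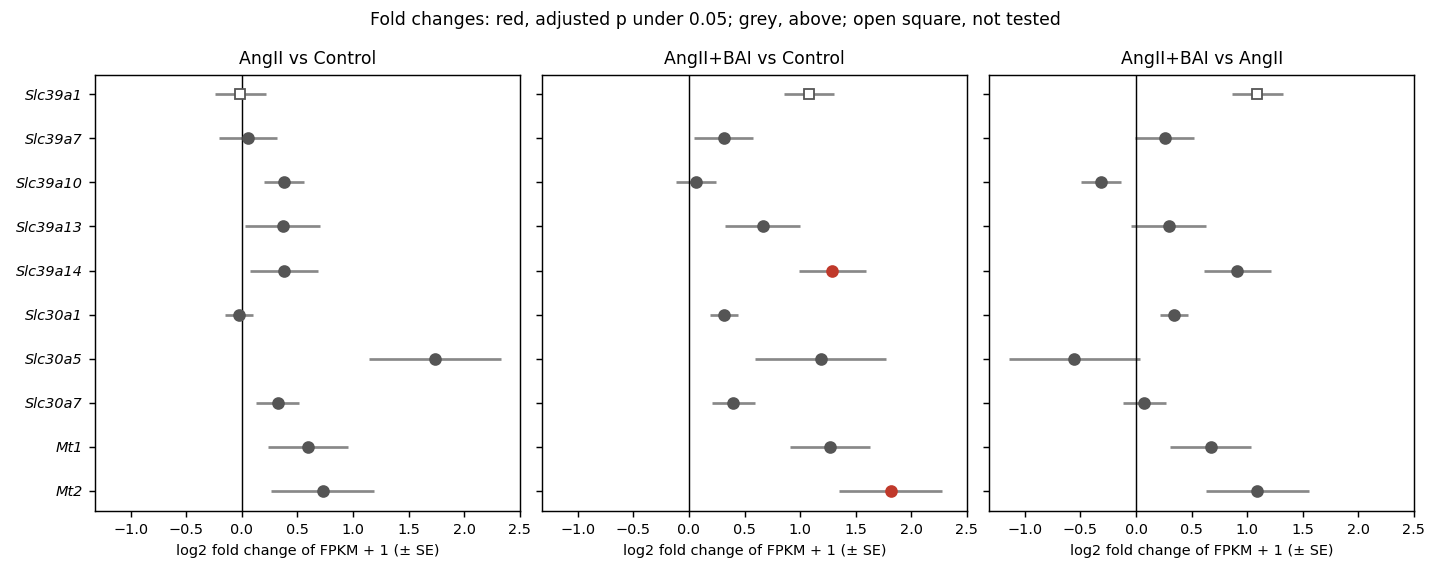
Log2 fold changes of FPKM + 1 with their SE for the 10 genes in AngII against Control, AngII+BAI against Control and AngII+BAI against AngII. Slc39a14 and Mt2 (red) passed an adjusted p of 0.05 in AngII+BAI against Control, and Slc39a1 (open squares) was not tested.

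Across the members, angiotensin II alone gave no call. In AngII against Control, limma called 0 of the 9 members tested and 0% of all genes. Unadjusted p was under 0.05 for 2 members, Slc39a10 and Slc30a5, as for 11.2% of genes, and the lowest adjusted p was 0.276. Of the 9 members, 8 had a positive difference, beside 66.6% of all genes, and their median was 0.38, beside 0.11 over all genes. With quantile normalization the median of all genes was -0.02, and in AngII+GAS against AngII it was 0.01 instead of -0.17. Slc30a1 and Slc39a1 had the smallest differences, -0.02 and -0.01, and the 95% interval for Slc30a1 ran from -0.29 to 0.24.

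Both calls on members came from AngII+BAI. In AngII+BAI against AngII, 0 of 9 members were called, beside 0.333% of all genes, and 3 had an unadjusted p under 0.05 (Slc39a14, Slc30a1 and Mt2), beside 14.6% of genes. Of the 9, 7 were positive, beside 48.7% of genes, and their median was 0.29, beside -0.01 over all genes. In AngII+BAI against Control, the 2 calls were Slc39a14 and Mt2, all 9 members were positive, beside 59.3% of genes, and 5 had an unadjusted p under 0.05 on the higher side, beside 13.7% of genes on that side and 19% on either. The median was 0.66, beside 0.09 over all genes. The members were chosen with earlier results of these data known, so the shares of all genes beside them are no test of the set. With AngII+BAI 3 and 5 left out, 6 of 9 members were positive against AngII (median 0.26, beside -0.09 over all genes) and 8 of 9 against Control (median 0.53, beside 0.02). The zinc genes outside the 10 members were counted with all libraries only. Of these, 4 of 10 were positive in AngII+BAI against AngII (median -0.03) and 6 of 10 against Control (median 0.15). By role, with all libraries, 1 of 4 importers tested, 0 of 3 exporters and 1 of 2 metallothioneins were called. These 2 comparisons share the AngII+BAI libraries, and those with AngII or Control share their reference libraries, so they are not independent.

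The other compounds gave no call against AngII. Of 9 members, 0 were called in AngII+ETH (0% of genes called), 0 in AngII+GAS (0.0151%) and 0 in AngII+VAL (0%). Unadjusted p was under 0.05 for 0, 1 and 1 members, beside 3.41%, 13.7% and 10.8% of genes. It was Slc39a10 in both of the latter, with differences of -0.43 (AngII+GAS) and -0.38 (AngII+VAL). Against Control, 0 of 10 members were called in AngII+ETH (0%), AngII+GAS (0.00756%) and AngII+VAL (0%), and unadjusted p was under 0.05 for 2, 2 and 1 members, beside 5.18%, 3.7% and 3.84% of genes. Slc30a5 was among them each time, with Slc39a13 in AngII+ETH and Slc39a1 in AngII+GAS. Between compounds, 0 of 9 were called in AngII+BAI against AngII+ETH (0%), AngII+GAS (0%) and AngII+VAL (0.597%), and unadjusted p was under 0.05 for 3, 6 and 4 members, beside 13.6%, 20.3% and 17% of genes. Among the 6 against AngII+GAS, Slc30a5 was lower in AngII+BAI (-1.46), unlike the others. Without AngII+BAI 3 and 5, unadjusted p was under 0.05 for 2, 3 and 3 members. In that fit 0 members were called in each, beside 0.0529%, 0.0605% and 0.355% of genes. A fit of recovered reads (voom) called 0 members in each of the 12 comparisons, and of all 13223 genes 28 in AngII+BAI against Control, 23 in AngII+BAI against AngII, 1 in AngII+GAS against Control and 0 in the other 9.

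Other genes of zinc handling were taken from a list of 20, of which 10 had transcripts in every library and all 10 were tested. In none of the 12 comparisons was any of them called, beside 0% to 1.44% of all genes, and their lowest adjusted p was 0.074. Slc30a9 and Slc39a3 were the most abundant. Slc30a9 averaged 14.7 to 16.9 FPKM and Slc39a3 9.09 to 12.05 FPKM over the groups. Mtf1, named as the only zinc sensor listed, averaged 4.80 FPKM in Control, 4.84 in AngII and 4.79 in AngII+BAI, and 3.10 in AngII+VAL (difference from Control -0.54, SE 0.16, adjusted p = 0.817).

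Mt3, a metallothionein known from neurons and named here after its values were seen, differed in pattern from Mt1 and Mt2. It averaged 4.55 FPKM in AngII (0.689 to 10.7) and 0.363 FPKM in Control (0 to 1.23), a difference of 1.72 (SE 0.50, adjusted p = 0.214). AngII+BAI averaged 0.712 FPKM, AngII+GAS 0.637, AngII+VAL 0.809 and AngII+ETH 2.04. The 6 neuron markers, as a mean of log2(FPKM + 1), had a median of 4.38 in AngII, 3.59 in AngII+ETH and 0.681 in Control. Their part in the Mt3 level was not tested.

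Lists of other metal-handling genes and of glucocorticoid-response genes were measured beside the members, since metallothioneins are known to respond to both. Of 14 copper and iron genes tested, 0 were called in each of the 12 comparisons, beside 0% to 1.44% of all genes. Fth1 and Ftl1, the ferritin subunits, were the most abundant, with Ftl1 at a mean of 633 ± 93.9 FPKM in Control and 1367 ± 1149 FPKM in AngII+BAI (SD, n = 5; adjusted p = 0.217). The Ftl1 difference of 0.74 was -0.08 without AngII+BAI 3 and 5. Of 13 glucocorticoid-response genes, 1 was called: Tsc22d3, a glucocorticoid-induced leucine zipper gene. In AngII+BAI it rose by 1.64 against Control (SE 0.34, adjusted p = 0.029) and by 1.50 against AngII+VAL (SE 0.34, adjusted p = 0.039). Of all genes, 1.44% and 0.597% were called in these 2 comparisons. A single call in a list of this size is close to such shares and says little about the list. Without AngII+BAI 3 and 5 the Tsc22d3 differences were 1.68 and 1.55 and did not pass (adjusted p = 0.082 and 0.081). The Tsc22d3 mean was 61.7 ± 26.0 FPKM in AngII+BAI, 37.8 ± 14.8 in AngII and 18.8 ± 6.24 in Control.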

How the data were processed

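The authors deposited 1 table of FPKM values per library, for annotated and assembled transcripts. No header names the unit, which was taken from the size of 1 read in the low values. The build was mm10 and limma was used, per the submitters' processing notes. Aligner and quantifier: not given in the sources used here. Ribosomal RNA was depleted, and the library kit does not mark strand, per the labels' protocols. Of 49085 transcripts, 39267 were listed in all tables, and the 27797 of these annotated in GENCODE M21 were summed to 14379 genes. Between 98.6% and 99.6% of low values were whole reads within 0.1 read. A gene entered the model when it reached 1 FPKM in 5 libraries or more, which left 13223 genes and all 10 members. Log2(FPKM + 1) was fitted in limma 3.58.1 (R 4.3.3; lmFit, eBayes with trend and robust), with 1 mean per group over 30 libraries (24 residual degrees of freedom). P-values are two-sided and were adjusted by Benjamini-Hochberg over all genes, with a threshold of 0.05. The model was tested on simulated data. Alternatives changed the pseudocount, filter, scaling, model and libraries used. Tables and figures were made in Python 3.11.15 with pandas 2.3.3, numpy 2.4.6 and matplotlib 3.10.9. The text names the 10 members, genes of the other lists past the threshold, the 2 most abundant of a list, and the 5 genes most like Slc39a1, Mt1 and Mt2. Members and lists were chosen with earlier results of these data known. Slc39a1 was not tested in comparisons that hold AngII or AngII+BAI libraries.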

Additional observations from a re-analysis of the deposited data

Results flagged for a closer look

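The 10 genes in 6 groups gave 60 sets of 5 libraries. In 7 of them, the highest library stood apart from the others by more than 0.71 of the whole range in FPKM. This is the limit of Dixon's test, which about 1 in 20 sets, or 3, would pass with normally distributed values. FPKM values need not be normal, and the log scale of the fold changes was not used here. Mt1 and Mt2 ran together, so their sets are not independent. The 7 sets are therefore a description and cannot be weighed against the 3. Of the 7, 4 were metallothionein values. Mt2 stood at 522 FPKM in AngII 3 (others 61.8 to 183), at 897 FPKM in AngII+BAI 3 (others 127 to 287) and at 192 FPKM in AngII+VAL 3 (others 57.9 to 90.5). Mt1 stood at 1136.5 FPKM in AngII+BAI 3 (others 193 to 464). Slc30a5 stood at 16.7 FPKM in AngII+BAI 4 (others 1.67 to 3.82), Slc39a13 at 11.3 FPKM in AngII 2 (others 2.16 to 4.38) and Slc30a7 at 6.28 FPKM in AngII 3 (others 4.60 to 4.97).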

How the results depend on the processing

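Among the alternative values of single genes, 824 kept direction and side of the threshold, 26 lost a call, 12 gained one and 22 turned direction. These counts include Slc39a1 in AngII against Control and in AngII+BAI against Control and against AngII. It was not tested there, so those values could only keep or turn direction. The only calls that could be lost were those of Slc39a14 and Mt2 in AngII+BAI against Control. These were kept in 8 and 6 of 20 alternatives, so the 824 mostly describe values that were never called. Among counts of called members, 211 were within 1.5 times and 22 were not. In AngII+BAI against Control the count of 2 became 1 without a filter on low values or with trimmed mean scaling, 0 with quantile normalization, voom, a model of the 2 groups alone, array weights or without AngII+BAI 3 and 5, and 0 to 3 with 1 library left out. It became 1 in AngII+GAS against Control in a model of the 2 groups alone (Slc30a5), 1 in AngII+BAI against AngII without AngII+BAI 3 and 5 (Slc39a10), and 1 in AngII+BAI against AngII+GAS with the union of transcript lists (Slc39a14). Leaving out 1 library gave 0 to 4 calls there and 0 to 1 against AngII+VAL. Directions turned for differences near 0: Slc39a7 in AngII against Control (-0.072 with quantile normalization, -0.061 with trimmed mean scaling, -0.042 with the union), Slc39a10 in AngII+BAI against Control (-0.029 with trimmed mean scaling, -0.10 with array weights, -0.079 with the union, -0.29 without AngII+BAI 3 and 5), and Slc30a7 in AngII+BAI against AngII (-0.058 with array weights, -0.28 without AngII+BAI 3 and 5). With 1 library left out, AngII against Control ran from -0.14 to 0.12 for Slc39a1, -0.077 to 0.20 for Slc39a7 and -0.11 to 0.062 for Slc30a1, Slc39a10 in AngII+BAI against Control from -0.11 to 0.19, and Slc30a7 in AngII+BAI against AngII from -0.14 to 0.20. The causes were not tested. Over all genes, the alternatives called 5 to 954 in AngII+BAI against Control, 0 to 184 against AngII, 0 to 1293 against AngII+GAS, 0 to 730 against AngII+VAL and 0 to 222 against AngII+ETH, and 0 to 64 in AngII against Control. No paired analysis was possible because the labels carry no replicate numbers that pair libraries.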
